A study of Mus musculus with 6 samples.

Results

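ERVB4 and ERVB7 are groups of mouse endogenous retroviruses related to the betaretroviruses, and their RNA was measured in embryonic fibroblasts with and without β-actin. The members are the 14 of 1336 rows of the deposited tables whose name begins with ERVB4 or ERVB7. Of these, 9 are ERVB4 rows (4 internal regions and 5 LTRs) and 5 are ERVB7 rows, all LTRs, and the tables place all 14 in the ERVK family of the LTR class. They were chosen by name, which uses no measured value, but the KO against WT fold changes were known when this pair of groups was put forward. The group is therefore treated as selected on those fold changes, and fold changes and calls of the members are given as a description of these libraries and support nothing further.

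An endogenous retrovirus is the remnant of a retroviral infection of the germ line. A full copy has an internal region with the gag, pro and pol genes between long terminal repeats (LTRs), which are identical when the copy inserts and hold the promoter and the signal for polyadenylation. Recombination between the LTRs of a copy removes the internal region and leaves a solitary LTR, so an LTR row can collect RNA from places in the genome where no internal region remains. Betaretroviruses are the retroviral genus of mouse mammary tumour virus, and their endogenous relatives in mice, among them the intracisternal A particles (IAP) and the ETn/MusD elements, are kept silent in embryonic cells by histone H3 lysine methylation and DNA methylation. β-actin, the product of Actb, is a protein of the cytoskeleton that is also found in the nucleus as a subunit of chromatin remodelling complexes.

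The cells were mouse embryonic fibroblasts of the BALB/c strain from embryos given as 10.5 days old. Wild-type (WT) cells and Actb-/- cells (KO), which lack β-actin, had 3 libraries each, described as biological replicates. No other allele or agent is named for either genotype. The sources used here do not say whether the replicates came from separate embryos or lines, or whether the cells were primary or immortalised, so p-values measure only the spread between these libraries. The tables hold repeats and structural RNA and no protein-coding gene, so neither Actb nor fibroblast markers were analysed here.

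Library totals ran from 7708630 to 19288620 estimated counts, and the rRNA share of them from 32.4% in WT replicate 1 and 52.9% in KO replicate 2 to 84.1% in WT replicate 2 and 84.8% in KO replicate 1. Levels are given as normalized CPM, which are CPM of the effective library size. In it the trimmed mean of M-values (TMM) sets the scale from the bulk of the rows instead of the total. The TMM factors were 0.423 in KO replicate 1, 0.429 in WT replicate 2, 2.19 in KO replicate 2 and 3.13 in WT replicate 1. Levels are thus relative to the bulk of the rows, and a change shared by most rows would be scaled away. A row sums all genomic copies of its element, without chromosome positions. Row lengths and copy numbers were not used, so levels are compared between genotypes within a row and not between rows. In bulk RNA a smaller number of expressing cells and less RNA per cell cannot be told apart.

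The 14 rows together took 13721 to 39889 counts per library, between 0.531% and 0.976% of the counts outside structural RNA. This percentage was highest in each genotype in the library poorest in rRNA (0.976% in WT replicate 1 and 0.848% in KO replicate 2). Of the 14 rows, the internal region ERVB4_1B-I_MM held most of the member counts. Its share of the member counts was 86.3%, 89.2% and 86.4% in WT replicates 1 to 3, and 82.5%, 80.6% and 80.5% in the KO replicates. The widest exact (Clopper-Pearson) 95% binomial interval, that of KO replicate 1, ran from 81.9% to 83.1%, and these intervals cover counting error only. The share was lower in every KO library than in every WT library. All 14 rows had enough counts to be tested, the scarcest being ERVB4_1-LTR_MM with 3 to 17 counts per library.

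On the TMM scale KO cells had 1.30 to 1.46 times the WT level of 3 ERVB7 LTRs. They had 1.38 to 1.39 times that of 2 ERVB4 internal regions, ERVB4_2-I_MM and ERVB4_1-I_MM. These 5 of 14 rows rose and none fell (quasi-likelihood test in edgeR, p adjusted after Benjamini and Hochberg over 1193 rows and below 0.05). Over all tested rows 5.78% were called, 2.18% as higher and 3.6% as lower in KO. No ERVB4 LTR was called, and ERVB4_1B-I_MM, the row with most of the counts, lay below its WT level in all KO libraries without passing. The median log2 fold change was 0.45 for the ERVB7 rows, 0.23 for the ERVB4 rows and 0.01 for all tested rows. With 4 libraries, leaving out those lowest in rRNA (WT replicate 1 and KO replicate 2), none of the 14 rows was called by edgeR. Over all tested rows 0.775% were called. At an unadjusted p under 0.05 by edgeR were 6 of the 14 members and 182 of all 1161 tested rows. In that fit the log2 fold changes were 0.44 for ERVB4_2-I_MM, 0.50 for ERVB4_1-I_MM, 0.55 for ERVB7_1-LTR_MM, 0.44 for ERVB7_2B-LTR_MM and 0.39 for ERVB7_2-LTR_MM, close to those from all 6 libraries. Scaled by total counts, rRNA included, the median of all rows moved to -0.36 and no member was called by edgeR (0% of all rows called). No member was at an unadjusted p under 0.05 by edgeR on that scale, and 3 of all 1193 tested rows were.

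**Figure D1:**
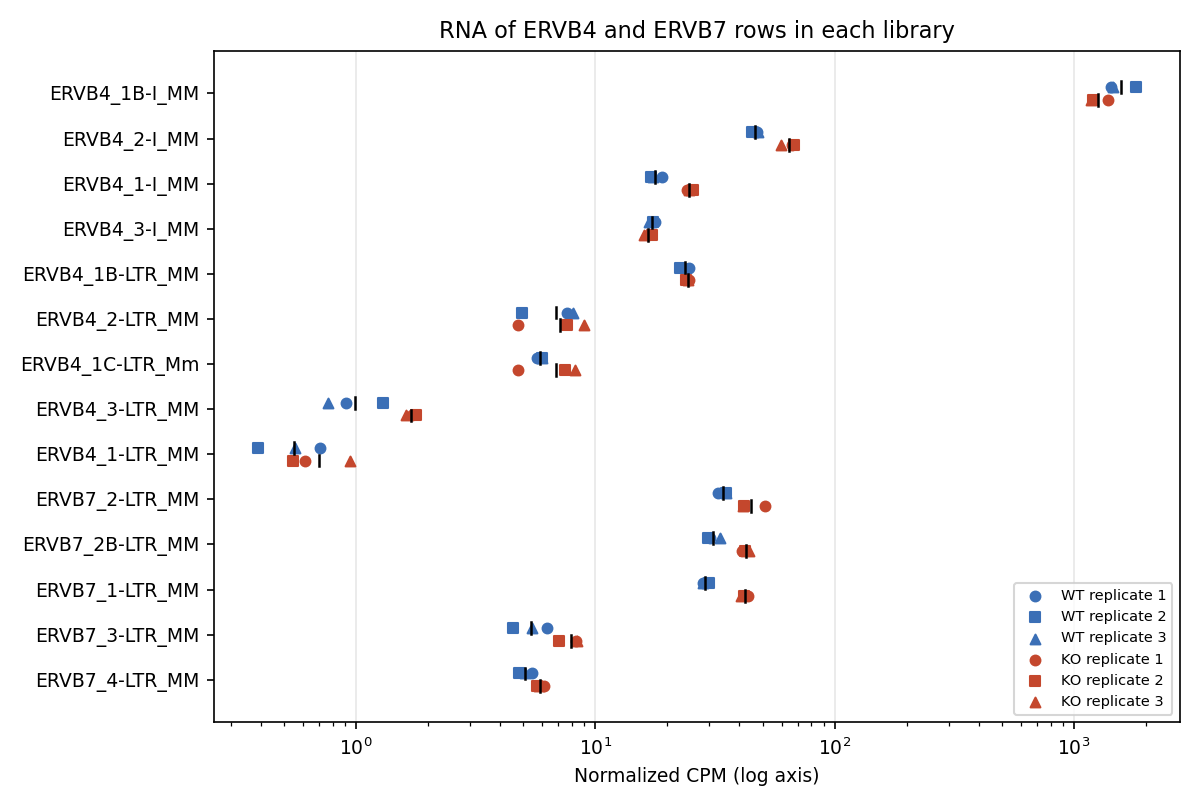
Normalized CPM (log axis) of each of the 14 rows in each library, with WT replicates in blue and KO replicates in red, the symbol giving the replicate number and the black bar the mean of 3 libraries. On this TMM scale the red and blue points of all 5 ERVB7 rows do not overlap, while those of 4 of the 5 ERVB4 LTR rows do. Over all tested rows 25.8% do not overlap in either direction, and 12.4% are higher in every KO library.

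Among the ERVB7 LTRs, ERVB7_1-LTR_MM stood at 28.3, 29.9 and 28.1 normalized CPM in WT replicates 1 to 3 and at 43.4, 42.0 and 40.8 in the KO replicates. The replicates of each genotype lay close together and the genotypes did not overlap. Its log2 fold change was 0.55 ± 0.05 (SE; adjusted p = 0.00143 by edgeR), the fourth smallest p of the 1193 tested rows. It was called in 14 of 16 alternatives, at adjusted p from 8.11e-06 to 0.998, the exceptions being the 4 libraries named above (0.55, adjusted p = 0.0520) and the total-count scale (0.19). On that total-count scale it lay 0.55 above the median of all rows.

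ERVB7_2B-LTR_MM was at 30.1, 29.6 and 33.3 in WT and 41.2, 42.2 and 44.0 in KO, again with no overlap. Its log2 fold change was 0.45 ± 0.06 (SE; adjusted p = 0.00492 by edgeR), and it kept the call in the same 14 of 16 alternatives. ERVB7_2-LTR_MM was at 32.7, 35.1 and 35.2 in WT and 51.2, 41.8 and 41.3 in KO. Here KO replicate 1, the library richest in rRNA, stood above the other KO libraries. Its log2 fold change was 0.37 ± 0.09 (SE; adjusted p = 0.0446 by edgeR). That call was held in only 3 of 16 alternatives, with adjusted p from 0.0161 to 0.998 across them, and the value was -0.011 on the total-count scale, which is 0.35 above the median of all rows there. Leaving out WT replicate 1, 2 or 3, or KO replicate 2 or 3, each ended it, at 0.33, 0.39, 0.41, 0.42 and 0.42.

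The remaining ERVB7 LTRs had fewer counts and did not pass. ERVB7_3-LTR_MM was at 6.27, 4.55 and 5.43 normalized CPM in WT and 8.33, 7.05 and 8.43 in KO, 0.49 ± 0.16 on the log2 scale (SE; adjusted p = 0.124 by edgeR). ERVB7_4-LTR_MM was at 5.44, 4.81 and 5.08 in WT and 6.13, 5.71 and 5.80 in KO, with a difference of 0.18 on the log2 scale (adjusted p = 0.520 by edgeR). Neither overlapped between genotypes, so that the 5 ERVB7 rows were all higher in every KO library than in every WT library, where 12.4% of all tested rows were. Among all 14 members 9 did not overlap, 8 of them higher and 1 lower in KO, against 25.8% of all tested rows in either direction and 13.4% in the lower one. On the total-count scale ERVB7_3-LTR_MM and ERVB7_4-LTR_MM lay at -0.016 and -0.24, above the median of all rows by 0.34 and 0.12.

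The sum of the 5 ERVB7 rows was 102.7, 104.03 and 107 normalized CPM in WT and 150.2, 139 and 140.4 in KO. This is 105 ± 2.25 (mean ± SD, n = 3) against 143 ± 6.20, or 1.37 times the WT level. The spread within WT was small although the rRNA share of these libraries differed widely. In KO the sum was highest in the library richest in rRNA and lowest in the poorest. On the total-count scale the log2 ratio of the mean sums was 0.069 in place of 0.45. The libraries of a genotype lay far apart there. ERVB7_1-LTR_MM was at 88.3, 12.8 and 26.2 CPM of total counts in WT and 18.4, 91.9 and 35.2 in KO. WT replicate 1 and KO replicate 2, the libraries poorest in rRNA, thus weigh most in that ratio.

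The ERVB4 internal regions, the part of a copy that holds the viral genes, did not move together. ERVB4_2-I_MM was at 47.3, 45.0 and 47.8 normalized CPM in WT and 66.6, 67.3 and 59.5 in KO, which is 0.46 ± 0.06 on the log2 scale (SE; adjusted p = 0.00474 by edgeR). ERVB4_1-I_MM was at 18.9, 17.2 and 17.5 in WT and 24.1, 25.5 and 24.6 in KO, which is 0.47 ± 0.07 on the log2 scale (SE; adjusted p = 0.00872 by edgeR). In both the genotypes were apart by more than the spread within either. ERVB4_2-I_MM was called in the same 14 of 16 alternatives as ERVB7_1-LTR_MM. ERVB4_1-I_MM was called in 12, with adjusted p from 0.00417 to 0.998, and the fits that ended its call included those without KO replicate 2 (0.44, adjusted p = 0.0559) and with the 4 libraries (0.50, adjusted p = 0.0810), in which its fold change was about as large. On the total-count scale they lay at 0.10 and 0.08, which is 0.46 and 0.44 above the median of all rows.

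ERVB4_3-I_MM was at 17.8, 17.4 and 16.7 normalized CPM in WT and 16.5, 17.3 and 16.1 in KO, with overlapping genotypes and a difference of -0.06 on the log2 scale (adjusted p = 0.722 by edgeR). ERVB4_1B-I_MM was at 1429, 1813 and 1455 in WT and 1387, 1203 and 1174 in KO. All KO libraries were below all WT libraries, but the highest KO library reached 1387 and the lowest WT library was at 1429. Its log2 fold change was -0.32 ± 0.12 (SE; adjusted p = 0.172 by edgeR), and it passed in 1 of 16 alternatives, the DESeq2 test (-0.32, adjusted p = 0.0230), which called 6.45% of all rows, with adjusted p from 0.0230 to 0.998 across them. In each genotype its highest level was in the library richest in rRNA, WT replicate 2 and KO replicate 1. With the rRNA share as a covariate its log2 fold change was -0.36 (adjusted p = 0.0687 by edgeR), and without WT replicate 2 it was -0.20. The part of the rRNA share in these values was not tested.

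**Figure D2:**
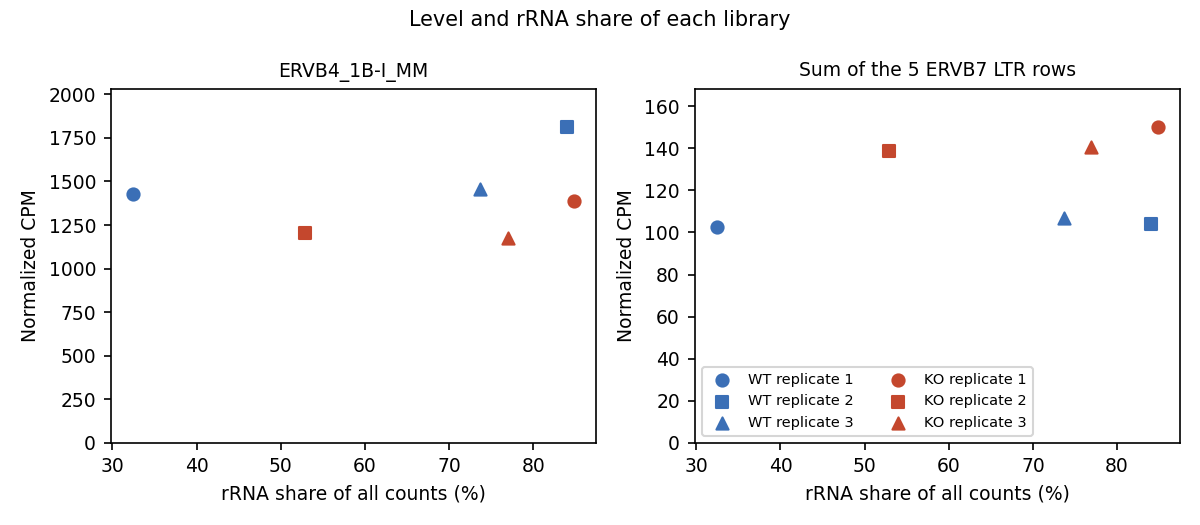
Normalized CPM of ERVB4_1B-I_MM (left) and of the summed ERVB7 LTR rows (right) against the rRNA share of all counts in the same library, with 1 point per library, WT in blue and KO in red. ERVB4_1B-I_MM is highest within each genotype at the highest rRNA share (1813 and 1387). On this TMM scale the ERVB7 sum lies between 102.7 and 107 in WT and between 139 and 150.2 in KO, where it is also highest in the library richest in rRNA and lowest in the poorest.

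Because ERVB4_1B-I_MM dominates, the summed internal rows followed it. The 4 internal rows summed to 1648 ± 213 normalized CPM in WT and 1360 ± 117 in KO (mean ± SD, n = 3), a ratio of 0.826. The log2 ratio of these sums was -0.28, and -0.17 without WT replicate 2. Without ERVB4_1B-I_MM, the other 3 internal rows summed to 84.0, 79.6 and 82.0 in WT and to 107, 110.1 and 100.2 in KO, a ratio of 1.29. On the total-count scale the log2 ratio of this second sum was 0.00014 in place of 0.37. The sign of the ERVB4 internal sum thus depends on whether this row is in it.

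The ERVB4 LTRs, from which transcription of a full copy would start, showed no called row. ERVB4_1B-LTR_MM, the LTR named with the dominant internal region, was at 24.7, 22.6 and 23.8 normalized CPM in WT and 24.7, 23.9 and 24.5 in KO. Its log2 fold change was 0.03 ± 0.06 (SE; adjusted p = 0.943 by edgeR), and it turned to -0.38 on the total-count scale, next to the median of all rows there. ERVB4_2-LTR_MM ranged from 4.94 to 8.07 in WT and from 4.78 to 8.97 in KO (log2 fold change 0.05, -0.34 on the total-count scale). It was lowest in each genotype in the library richest in rRNA. ERVB4_1C-LTR_Mm was at 5.73, 5.98 and 5.99 in WT and more scattered in KO, at 4.78, 7.5 and 8.23 (log2 fold change 0.27, -0.026 on the total-count scale).

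The 2 scarcest LTRs give little precision. ERVB4_3-LTR_MM, with 10 to 36 counts per library, was at 0.913, 1.30 and 0.766 normalized CPM in WT and 1.72, 1.79 and 1.62 in KO. It had the highest fold change of the 14 rows, 0.86 on the log2 scale, with a standard error of 0.27, and did not pass (adjusted p = 0.11 by edgeR), although every KO library was above every WT library. ERVB4_1-LTR_MM ranged from 0.390 to 0.705 in WT and from 0.546 to 0.944 in KO, and the genotypes overlapped (log2 fold change 0.23, standard error 0.36, -0.32 on the total-count scale). The 5 ERVB4 LTRs summed to 38.0 ± 2.43 in WT and 40.7 ± 3.85 in KO (mean ± SD, n = 3), a log2 ratio of 0.10 that turned to -0.28 on the total-count scale.

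**Figure D3:**
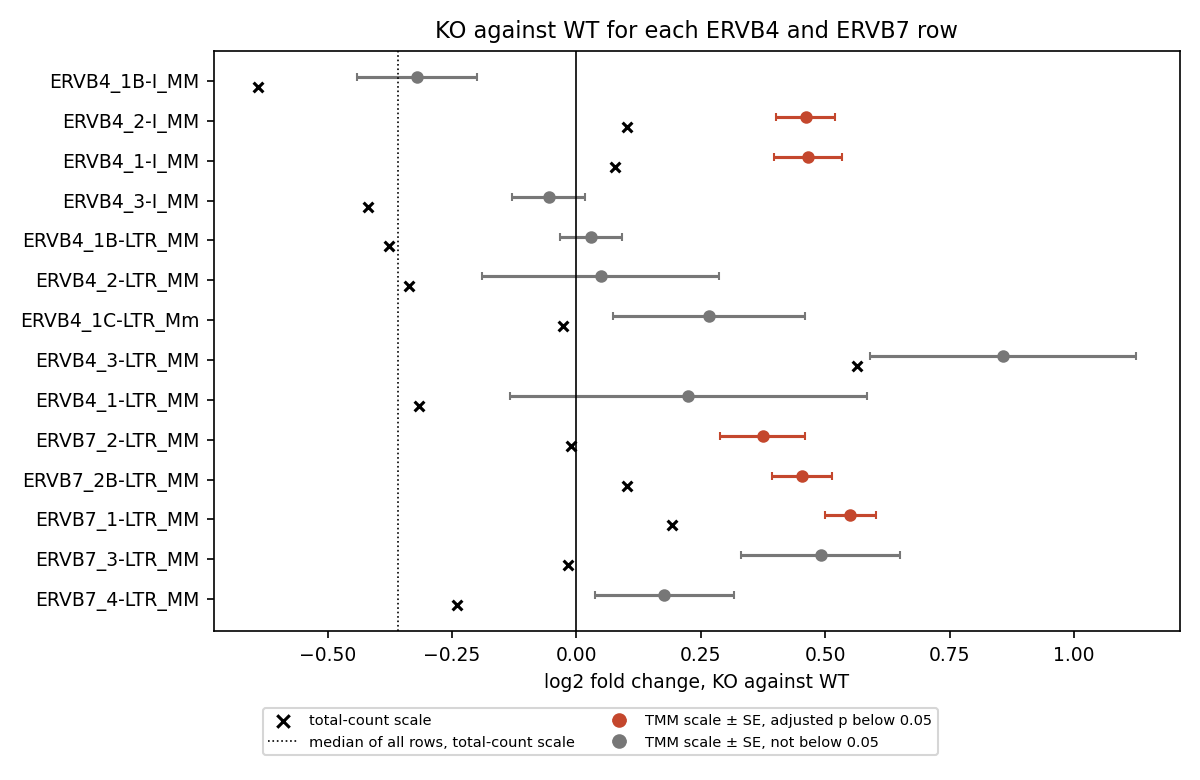
Log2 fold change of KO against WT for each row, with circles for the TMM scale and its standard error (red for an edgeR adjusted p below 0.05, grey for the others) and crosses for the total-count scale, whose median over all rows is the dotted line at -0.36. The 5 red rows lie between 0.37 and 0.55, and on the total-count scale 7 rows change sign (4 ERVB4 LTRs, ERVB7_2-LTR_MM, ERVB7_3-LTR_MM and ERVB7_4-LTR_MM).

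Ratios of counts within a library do not depend on the scaling, and they were used to set the kinds of row against each other. None of these ratios was tested, since the members were chosen with the KO against WT results known. The 3 other ERVB4 internal rows stood to ERVB4_1B-I_MM as 0.0588, 0.0439 and 0.0563 in WT and 0.0774, 0.0916 and 0.0853 in KO, with every KO library above every WT library. This ratio was 1.61 times as high in KO.

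Internal and LTR rows were compared next. The summed ERVB4 internal rows had 38.1, 53.7 and 39.2 counts for each count of the ERVB4 LTR rows in WT and 40.8, 31.7 and 28.8 in KO, a ratio 0.774 times as high in KO, and the genotypes overlapped. Without ERVB4_1B-I_MM the internal rows had 2.12, 2.26 and 2.09 counts per LTR count in WT and 2.93, 2.66 and 2.26 in KO, 1.21 times as high, with KO replicate 3 barely above WT replicate 2. The internal and LTR rows of each element were then set against each other. ERVB4_1B-I_MM had 57.9, 80.1 and 61.1 counts for each count of ERVB4_1B-LTR_MM in WT and 56.0, 50.4 and 47.9 in KO, which is lower in every KO library although WT replicate 1 and KO replicate 1 were close. ERVB4_2-I_MM had 6.20, 9.11 and 5.92 counts per count of ERVB4_2-LTR_MM in WT and 13.9, 8.81 and 6.63 in KO, and the genotypes overlapped. ERVB4_3-I_MM had 19.5, 13.4 and 21.8 counts per count of ERVB4_3-LTR_MM in WT and 9.64, 9.67 and 9.92 in KO. That drop rests on the 10 to 36 counts of the LTR. For ERVB4_1 the ratio ranged from 26.8 to 44.0 in WT and from 26.1 to 46.7 in KO. In KO the ratio was thus 0.781 times its WT value for ERVB4_1B, 1.35 for ERVB4_2, 0.546 for ERVB4_3 and 1.09 for ERVB4_1, in both directions. The ERVB4_1 value turned below 1 without WT replicate 1 or KO replicate 2.

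ERVB4 was then set against ERVB7. The ERVB4 LTR rows stood to the ERVB7 LTR rows as 0.386, 0.339 and 0.366 in WT and 0.244, 0.298 and 0.315 in KO, a ratio 0.782 times as high in KO, with no overlap. All ERVB4 internal rows stood to the ERVB7 LTRs as 14.7, 18.2 and 14.4 in WT and 9.95, 9.47 and 9.07 in KO. Without ERVB4_1B-I_MM the internal rows stood to the ERVB7 LTRs as 0.817, 0.765 and 0.765 in WT and 0.715, 0.794 and 0.713 in KO. In this last ratio the genotypes overlapped.

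**Figure D4:**
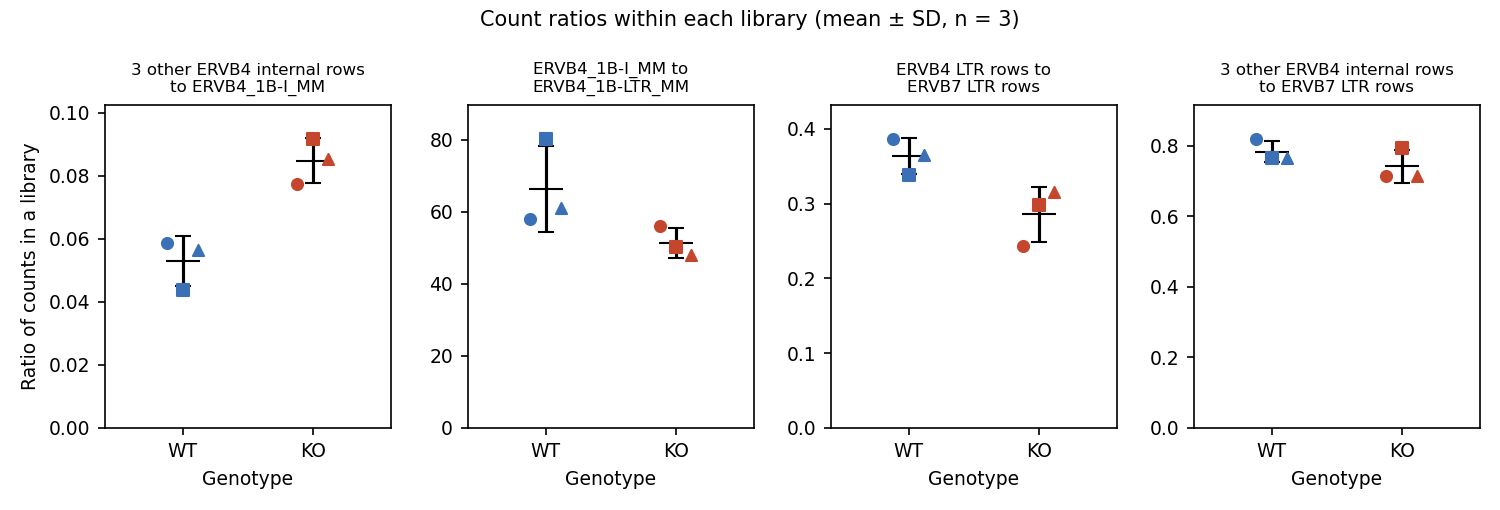
Ratio of counts within each library for 4 pairs of row sets, WT in blue and KO in red, each point a library (circle, square and triangle for replicates 1, 2 and 3) and the black bars mean ± SD (n = 3). The first ratio is higher and the second and the third are lower in every KO library, while the fourth overlaps between 0.713 and 0.817.

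Over the 6 libraries, on log2 normalized CPM, the rows that rose were all positively correlated. Pearson's r was 0.96 between ERVB4_2-I_MM and ERVB4_1-I_MM, 0.96 between ERVB4_2-I_MM and ERVB7_1-LTR_MM, and 0.93 between ERVB7_2B-LTR_MM and ERVB7_1-LTR_MM. ERVB7_2-LTR_MM followed the other 4 less closely, at 0.79 with ERVB4_1-I_MM, 0.81 with ERVB7_2B-LTR_MM, 0.89 with ERVB4_2-I_MM and 0.91 with ERVB7_1-LTR_MM. It was -0.75 between ERVB4_2-I_MM and ERVB4_1B-I_MM. These values mostly restate the difference between genotypes, and the points share library and depth. The sources used here do not say how reads that match several rows were shared out, and the part of shared reads in these values was not tested.

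Among 928 rows outside the group with a mean of at least 50 counts, those most like the summed ERVB7 rows over the 6 libraries were MYSERV16_I-int, an ERVK internal region, at r = 0.99, the DNA transposons Tigger12c, MamRep38 and Charlie22a at 0.98 each, and RLTRETN_Mm, the LTR of ETn/MusD elements, at 0.98. An r over 0.9 was reached by 33 of these rows. The rows most like the summed ERVB4 rows, which are mostly ERVB4_1B-I_MM, were MYSERV6-int, ERVL-B4-int and RLTR30D_RN at 0.99 and L1MB2 and RLTR12D at 0.98, and 40 rows were over 0.9. On deviations from each genotype's mean, which leave the KO against WT difference out, the ERVB4 sum was closest to MYSERV6-int and the spliceosomal RNA U6 (0.99 each), followed by ERVL-B4-int, ORR1F-int and RLTR30D_RN (0.98 each). The ERVB7 sum was closest to ORR1B2 (0.99), Charlie4a (0.98), RLTR9B (0.96), MADE2 (0.95) and MLTR31F_MM (0.95). RLTRETN_Mm was not among them. On deviations an r over 0.9 was reached by 45 of the 928 rows for the ERVB4 sum and by 18 for the ERVB7 sum. None of these likenesses was tested.

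Other betaretroviral rows gave the setting. Of 7 rows with other ERVB names (ERVB2, ERVB3 and ERVB5), none was called, with a median log2 fold change of -0.02. Their most abundant rows were ERVB5_1-I_MM, at 18.6 ± 2.78 normalized CPM in WT and 18.4 ± 2.65 in KO, and ERVB3_1-I_MM, at 15.8 ± 0.761 and 18.1 ± 0.818 (mean ± SD, n = 3; adjusted p = 0.943 and 0.168 by edgeR). Of the ETn/MusD rows, 4 of 5 rose, with a median log2 fold change of 0.55, against 0.45 for the ERVB7 rows. A rise of this size was thus not particular to ERVB7. MMETn-int was at 389, 456 and 419 in WT and 684, 647 and 596 in KO. MMTV-int, the internal region of mouse mammary tumour virus, had 6.99 ± 0.857 normalized CPM in WT against 6.42 ± 0.700 in KO (adjusted p = 0.837 by edgeR), and its LTR row RLTR3_Mm had too few counts to be tested. Of 25 IAP rows none rose and 3 fell, and of 11 MMERVK10C rows none was called. The median log2 fold changes of these lists were -0.05 and 0.12. Of the 212 remaining ERVK rows tested, 5 rose and 4 fell, with a median of 0.00148. Their most abundant row, MMERVK9C_I-int, was at 2001, 35343 and 15024 in WT and 37850, 4725 and 17025 in KO. In each genotype it was highest in the library richest in rRNA and lowest in the poorest. Whether the ERVB7 rows differ from these lists was not tested.

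LTRs used in other cells that a culture from embryos could hold were read beside these results. The 3 rows of the MERVL group are active in cells like those of the early cleavage embryo. They summed to between 442 and 1365 normalized CPM in WT and between 498 and 1177 in KO, with none called. MT2_Mm was at 59.0, 959 and 466 in WT and 745, 93.4 and 450 in KO, lowest where rRNA was poorest in each genotype. MERVL_2A-int ranged only from 289 to 300 in WT and from 276 to 313 in KO. The 15 RLTR9 and RLTR45 rows, used in embryonic stem cells, summed to between 212 and 229 in WT and between 226 and 239 in KO, with none of the 14 tested rows called. The 23 RLTR13 rows, used in trophoblast, summed to between 356 and 381 in WT and between 380.1 and 396 in KO, with 1 higher and none lower. No row of these lists was at 0 in any library, and their part in the ERVB4 and ERVB7 values was not tested.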

How the data were processed

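Total RNA of 6 samples was sequenced after depletion of ribosomal RNA with a TruSeq Ribo-Zero kit, per the labels' protocols. For each repeat row the authors deposited estimated counts, called fractional in the file names, without normalization, and all were whole numbers. FastQC 0.11.5, Trimmomatic, Bowtie2, mm10 and GRCm38 are named in the submitters' processing notes. The sources used here do not name the repeat counter, its annotation, the use of strand or the division of reads between rows.

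Group and replicate came from the sample titles. Analysis used R 4.3.3 and edgeR 4.0.16: filterByExpr (1193 of 1336 rows kept), TMM, the quasi-likelihood test and Benjamini-Hochberg adjustment at 0.05 over all tested rows, with standard errors from the test statistic. The procedure was also run on counts simulated at the fitted TMM library sizes, a run that cannot check whether this scaling suits these libraries. In unscaled counts of all tested rows, rRNA included, replicates differed by more than sampling noise (chi-square over degrees of freedom of at least 489 for each pair). That measure takes in the unequal rRNA shares. It does not give the spread of single rows on the TMM scale, and the members were not tested for it. Sums, ratios and correlations (log2 of normalized CPM plus 0.5) had no test. Named rows were all members, the 2 rows with the most counts of each list set by name, as far as they were needed, and the 5 most similar rows. Members and lists were chosen with earlier results of these data known. Alternatives were DESeq2 1.42.0 (test and size factors), limma-voom (limma 3.58.1), total counts, other filters, no structural RNA, a replicate block and leaving out each library. The rRNA covariate, the fit of 4 libraries and sums without ERVB4_1B-I_MM were chosen after seeing the data.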

Additional observations from a re-analysis of the deposited data

How the results depend on the processing

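Of the 14 rows, 5 were called as reported, and between 3 and 5 when a single library was left out. Over all rows the count was 69 as reported and between 22 and 69 without a single library, and 41 without structural RNA. With the replicate block 24 rows and 3 members were called, without ERVB4_1-I_MM (0.47, adjusted p = 0.0521) and ERVB7_2-LTR_MM (0.38, adjusted p = 0.108). Deviations from the genotype means, compared over rows between WT and KO libraries of one number, gave correlations of -0.55, -0.50 and 0.04, and WT replicates 1, 2 and 3 deviated most like KO replicates 2, 1 and 1, so the number was not used for pairing. With 4 libraries 9 rows and 0 members were called by edgeR, with 182 rows and 6 members at an unadjusted p under 0.05.

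By total counts 0 rows and 0 members were called by edgeR, with 3 rows and 0 members at an unadjusted p under 0.05. On that scale log2 fold changes turned to -0.38 for ERVB4_1B-LTR_MM, -0.34 for ERVB4_2-LTR_MM, -0.026 for ERVB4_1C-LTR_Mm, -0.32 for ERVB4_1-LTR_MM, -0.011 for ERVB7_2-LTR_MM, -0.016 for ERVB7_3-LTR_MM and -0.24 for ERVB7_4-LTR_MM. The log2 ratios of sums were -0.60 for ERVB4 internal rows, 0.00014 without ERVB4_1B-I_MM and -0.28 for ERVB4 LTRs. They were 0.069 for ERVB7 LTRs and -0.54 for all 14 rows. These are ratios of group means, in which WT replicate 1 and KO replicate 2 weigh most. On that scale, which includes rRNA, the log2 fold changes of all 14 rows lay lower than on the TMM scale, by unequal amounts. ERVB4_3-LTR_MM went from 0.86 to 0.56 and ERVB4_1-LTR_MM from 0.23 to -0.32. Libraries of a genotype also lay far apart, with ERVB4_2-I_MM at 147.9, 19.3 and 44.6 CPM of total counts in WT. The cause of the lost calls was not tested.

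Leaving out a library turned ERVB4_1B-LTR_MM (-0.00058 to 0.062), ERVB4_2-LTR_MM (-0.13 to 0.20) and ERVB4_1-LTR_MM (-0.072 to 0.49), none of which was called. The cause was not tested. The ratios of row sets within a library kept their direction when any single library was left out, as did the internal to LTR ratios of ERVB4_1B, ERVB4_2 and ERVB4_3. The log2 change of the ERVB4_1 ratio turned to -0.032 without WT replicate 1, -0.057 without KO replicate 2 and -0.21 with 4 libraries, within a range of -0.057 to 0.36 over single libraries left out. Low counts limit ERVB4_1-LTR_MM and ERVB4_3-LTR_MM most.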
